A study of Mus musculus with 24 samples.

Results

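The chains examined here were the collagen genes of mouse skin, taken as every gene in the deposited expression table whose symbol begins with Col and gives a type number, the letter a and a chain number. This rule found 44 of the 18368 genes in the table. By the structure of the protein they fell into 11 fibrillar chains, 9 basement membrane and anchoring fibril chains, 9 beaded filament and hexagonal network chains, 9 FACIT chains (fibril-associated collagens with interrupted triple helices), 4 transmembrane chains and 2 chains outside these classes. No measured value entered the rule.

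Collagens are secreted or membrane-bound proteins in which chains wind around each other into a triple helix. Types I and III form the fibrils that give the dermis its tensile strength, type V sets where fibrils start and how thick they grow, and type IV forms the sheet of the basement membrane. Type VII makes the anchoring fibrils that tie the epidermal basement membrane to the dermis, type VI forms beaded microfilaments around cells, FACIT chains coat fibrils, and type XVII spans the membrane of basal keratinocytes. In a healing wound a provisional matrix fills the gap first and collagen is laid down later, by fibroblasts that enter the wound.

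RNA came from full-thickness skin of 12 CD1 mice of an in-house colony. Age at wounding was 7 weeks, with the hair cycle coordinated in telogen, the resting phase. Each mouse was wounded at the abdomen, the back or the cheek, with 4 mice per site, by 2 mm full-thickness excision (1 wound on a cheek, 2 on an abdomen or back). After 3 days the wound and adjacent unwounded skin of the same mouse were taken with a 2 mm punch, which gave 6 groups of 4 libraries: unwounded and wound at each of the 3 sites. The unwounded skin therefore came from animals that carried a wound, and no genotype, drug or transgene differed between groups. Values are FPKM, sequenced fragments per kilobase of a transcript relative to all mapped fragments of its library, so that levels of different chains can be set side by side per length. FPKM holds no counts, so depth and counting error are unknown. Where 4 values are listed, they are those of mice 1 to 4 of the site, and ± after a level is the SD over 4 mice.

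The FPKM of all genes summed to between 490830 and 608888 per library. All 10 listed fibroblast markers and all 8 keratinocyte markers had a mean of at least 0.5 FPKM in every group. The fibroblast marker sum ranged from 2809 to 6412 FPKM in unwounded skin and from 2287 to 3843 FPKM in wounds. Of the 8 listed cartilage markers in the table, Sox9, which hair follicles also express, lay between 9.36 and 24.2 FPKM in every library, Cnmd reached 1.81 and Acan 1.38 FPKM, and the other 5 stayed at or below 0.76 FPKM, with the matrilin Matn1 at 0 in every library of 5 of the 6 groups. Bone markers summed to at most 4.06 FPKM. The unwounded cheek library of mouse 4 stood apart. Its growing hair follicle markers summed to 3338 FPKM, against 6.0 to 56.2 FPKM in the other 11 unwounded libraries, and its fibroblast markers to 2809 FPKM, against 4301 to 5568 FPKM in the other 3 unwounded cheek libraries. Cheek results are also given without that mouse where a call is gained or lost or the value moves most.

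Several chains lie next to each other in the genome (positions here and below are RefSeq gene spans in GRCm38.p6, strands from GENCODE vM21). Col4a1 and Col4a2 on chromosome 8 start head to head and their annotated ends overlap by 85 bases, as do Col4a3 and Col4a4 on chromosome 1, by 114 bases. Col4a5 and Col4a6 on chromosome X are also head to head, 1274 bases apart. Col3a1 and Col5a2 on chromosome 1 face each other tail to tail, 24624 bases apart. Whether the counting used strand is not given in the sources used here, so fragments from the overlapped bases cannot be told apart. The RefSeq promoter table (GRCm38.p6) matched 35 of the 44 genes, with 38 promoters. In the 250 bases before the start, read on both strands, TATAAA was found in 5 of them (13.2%, against 12.4% of all 32851 promoters in the table), CCAAT in 13 (34.2%, against 33.8%) and GGGCGG in 22 (57.9%, against 32.7%). No motif searched contains another. A match is only a run of letters in this window.

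The stretches before the start are shown for 4 chains on which the results below turn, Col3a1, which was called lower in abdomen wounds, and 3 that were called higher in wounds at every site, from classes that form fibrils, microfilaments and anchoring fibrils. Each is written 5′ to 3′ along the gene, the 250 bases that end just before the transcript start, with the TATAAA string in capitals, as well as the CCAAT string and GGGCGG or their reverse complements. None overlaps an exon of GENCODE vM21, whereas the stretches of Col5a3 and Col6a3 begin upstream of the RefSeq gene span and end inside it, since another RefSeq transcript starts farther upstream.
Col3a1, chr1:45311288-45311537, plus strand: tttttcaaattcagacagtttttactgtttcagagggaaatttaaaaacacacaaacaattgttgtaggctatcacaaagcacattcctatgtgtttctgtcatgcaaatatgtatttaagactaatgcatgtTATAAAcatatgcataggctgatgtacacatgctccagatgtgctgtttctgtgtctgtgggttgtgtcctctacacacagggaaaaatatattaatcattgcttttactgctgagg
Col5a3, chr9:20815068-20815317, minus strand: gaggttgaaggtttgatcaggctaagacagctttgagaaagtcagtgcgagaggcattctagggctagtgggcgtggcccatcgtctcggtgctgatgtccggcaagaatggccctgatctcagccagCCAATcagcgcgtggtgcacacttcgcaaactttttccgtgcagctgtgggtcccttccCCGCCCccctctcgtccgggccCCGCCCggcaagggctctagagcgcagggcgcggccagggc
Col6a3, chr1:90843972-90844221, minus strand: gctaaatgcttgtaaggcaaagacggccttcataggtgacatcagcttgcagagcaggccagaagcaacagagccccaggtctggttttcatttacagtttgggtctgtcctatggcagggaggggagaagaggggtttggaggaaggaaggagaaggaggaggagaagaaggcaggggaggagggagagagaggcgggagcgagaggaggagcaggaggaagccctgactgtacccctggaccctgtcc
Col7a1, chr9:108953336-108953585, plus strand: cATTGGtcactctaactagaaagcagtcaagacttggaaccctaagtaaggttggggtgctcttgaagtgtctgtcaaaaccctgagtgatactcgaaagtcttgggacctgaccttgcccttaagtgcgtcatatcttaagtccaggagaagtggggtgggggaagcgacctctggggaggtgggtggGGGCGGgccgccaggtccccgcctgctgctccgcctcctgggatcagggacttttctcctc
Col3a1 held 1 TATAAA, beginning 117 bases before the start. Col5a3 held CCAAT at 122 bases and the reverse complement of GGGCGG at 63 and 41 bases before the start. Col7a1 held the reverse complement of CCAAT at 249 bases and GGGCGG at 61 bases before the start. The Col6a3 window held none of the 3 strings.

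Collagen transcripts took a smaller share of the tissue's FPKM in wounds than in unwounded skin. The 44 chains together made up 2.69 ± 0.645% of all FPKM in unwounded abdomen, 3.27 ± 0.642% in back and 2.06 ± 0.386% in cheek. In wounds the shares were 1.6 ± 0.298%, 1.75 ± 0.191% and 1.44 ± 0.377%. The share was lower in the wound than in the unwounded skin of the same mouse in 11 of 12 mice, the exception being cheek mouse 4. These are values with their spread, without a test, because they are sums over the chosen chains.

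Col1a1, Col1a2 and Col3a1 supplied most of this FPKM. They held 93.1 ± 0.432% of collagen FPKM in unwounded abdomen, 94.2 ± 0.826% in back and 91.2 ± 1.35% in cheek, and 87.3 ± 1.97%, 85.9 ± 1.83% and 80.6 ± 3.9% in the wounds, lower in 12 of 12 mice. Other classes held correspondingly more, as shares of a collagen total that was lower in the wound in 11 of 12 mice. Beaded filament and network chains went from 2.24% to 4.93% of collagen FPKM at the abdomen, from 2.25% to 6.09% at the back and from 3.54% to 8.25% at the cheek. Basement membrane and anchoring fibril chains went from 1.36% to 2.74%, from 1.14% to 2.76% and from 1.83% to 4.2% at the 3 sites in that order. FACIT chains went from 0.356%, 0.288% and 0.43% to 0.624%, 0.783% and 0.994%. Transmembrane chains, almost all Col17a1, held between 0.989% (unwounded back) and 1.84% (cheek wounds). As mean summed FPKM, beaded filament and network chains went from 316, 384 and 383 to 445, 607 and 617 at the 3 sites. Basement membrane and anchoring fibril chains went from 189, 193 and 194 to 245, 274 and 313. FACIT chains went from 50.1, 50.3 and 45.8 to 56.4, 77.5 and 75.2. The transmembrane sum fell, from 207, 167 and 145 to 156, 131 and 137, lower in the wound in 11 of 12 mice.

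**Figure D1:**
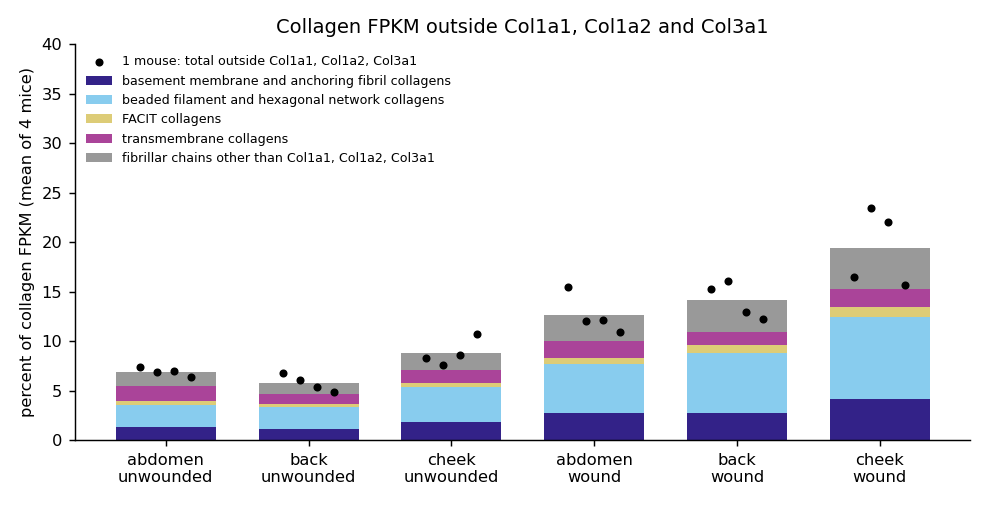
The share of collagen FPKM outside Col1a1, Col1a2 and Col3a1 is drawn by class as stacked means of 4 mice (y axis, percent of collagen FPKM) for unwounded skin and day 3 wounds at the 3 sites (x axis). Each wound column is taller than the unwounded column of its site, with beaded filament and network chains at 4.93%, 6.09% and 8.25% in abdomen, back and cheek wounds.

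Wound effects were tested as the difference in log2(FPKM + 0.5) between wound and unwounded skin of the same mouse, with limma over all 24 libraries and Benjamini-Hochberg adjustment over the 14423 genes that reached 0.5 FPKM in 4 or more libraries. Of the 44 chains, 35 passed that filter. At the abdomen 22 of the 35 were called at an adjusted p under 0.05 (62.9%, against 32.9% of all genes tested), 12 higher and 10 lower in wounds (16.9% and 16% of all genes). At the back 25 were called (71.4%, against 45.9% of all genes), 16 higher and 9 lower (28% and 17.9%). At the cheek 24 were called (68.6%, against 36.6%), 16 higher and 8 lower (19.7% and 16.9%). Of the 35 chains, 30 would pass on the 12 unwounded and on the 12 wound libraries alike. Col24a1 passed only through its wound libraries, and Col4a3, Col4a4 and Col9a3 only through their unwounded ones, so that the direction of these 4 was partly built into the filter. Col26a1 passed only on both kinds together. The median log2 difference over the chains was -0.03 at the abdomen, 0.27 at the back and 0.38 at the cheek, against -0.01, 0.07 and 0.01 over all genes tested. At an adjusted p under 0.001 the chains called were 4 at the abdomen, 13 at the back and 11 at the cheek (4.96%, 14.4% and 8.69% of all genes). A difference on this scale understates the change of genes near 0.5 FPKM or below.

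At all 3 sites 12 chains were called higher, as were 12% of all genes tested (Col4a1, Col4a2, Col5a3, Col6a1, Col6a2, Col6a3, Col7a1, Col8a1, Col12a1, Col18a1, Col24a1 and Col27a1) and 7 lower, as were 7.15% of all genes (Col1a1, Col1a2, Col4a3, Col4a4, Col4a5, Col4a6 and Col20a1). Among these, the directions of Col24a1 (higher) and of Col4a3 and Col4a4 (lower) were partly built into the filter. Col5a1, Col5a2 and Col13a1 were called higher at 2 sites and Col8a2 and Col17a1 lower at 2. A call at 1 site was made for Col16a1 and Col23a1 (higher) and for Col3a1 and Col15a1 (lower). No chain was called higher at 1 site and lower at another. The remaining 7 tested chains, Col6a5, Col6a6, Col9a3, Col11a1, Col14a1, Col26a1 and Col28a1, were not called at any site. In this bulk tissue, fewer cells of a type and less RNA per cell cannot be told apart.

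**Figure D2:**
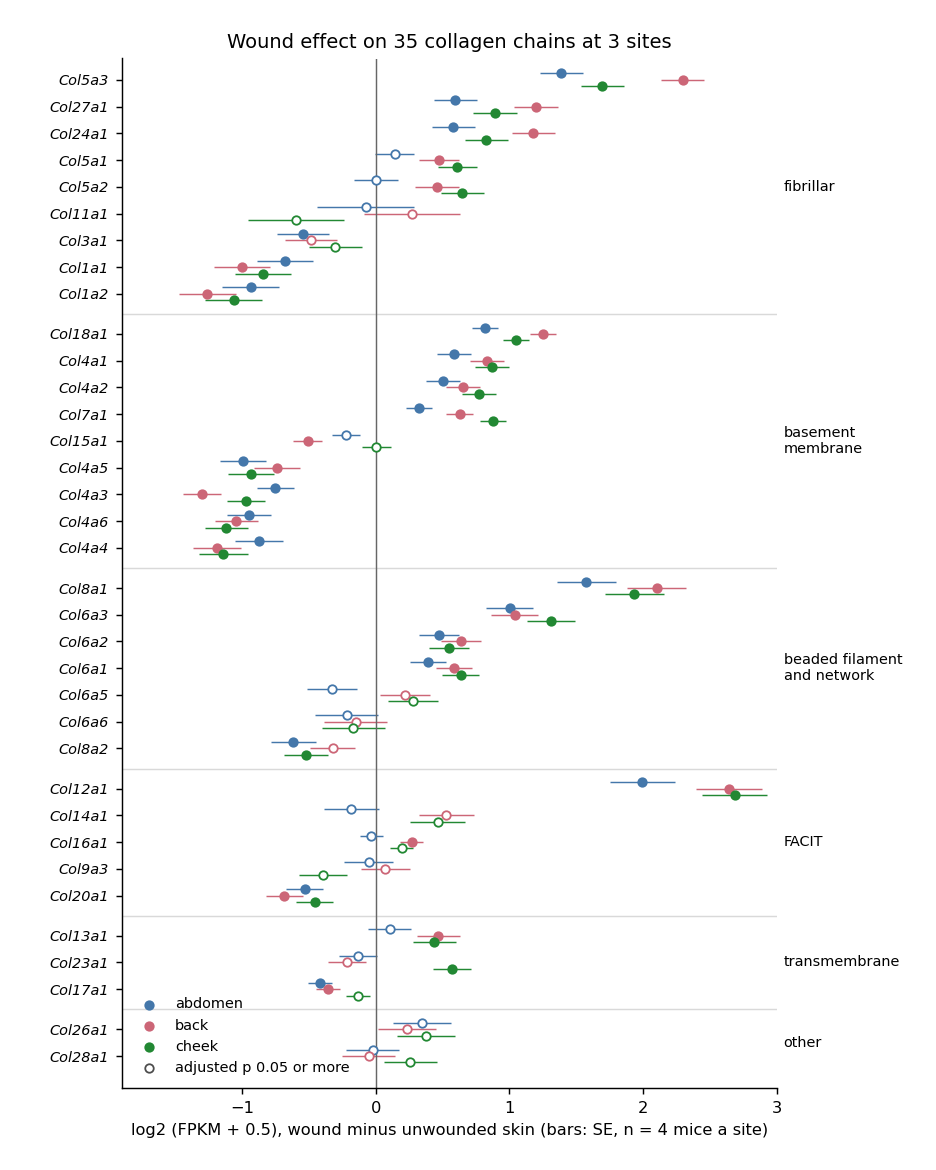
Wound effects of the 35 tested chains, grouped by class (y axis), as the difference in log2(FPKM + 0.5) between wound and unwounded skin (x axis) with its SE, for abdomen, back and cheek in 3 colours; filled points have an adjusted p under 0.05. By the mean of the 3 sites Col12a1 and Col8a1 lie farthest to the right and Col1a2 and Col4a4 farthest to the left, each with the 3 sites on the same side.

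Among the fibrillar chains the 2 that build type I collagen, Col1a1 (chr11:94936224-94953042, plus strand) and Col1a2 (chr6:4505618-4541543, plus strand), were lower in wounds at every site, whereas Col3a1 (chr1:45311538-45349706, plus strand), the single chain of type III collagen, was lower at the abdomen alone by the test. Type I forms the thick dermal fibrils, and type III runs with it in thinner, more pliable ones. Abdominal Col1a1 measured 3559, 4483, 3946 and 5122 FPKM unwounded and 2398, 2459.6, 2471 and 3383 FPKM in wounds. Back Col1a1 measured 4648, 5188, 7074 and 5624 FPKM unwounded and 2497, 2268, 3048 and 3476 FPKM in wounds. Cheek Col1a1 measured 3064, 3691, 3641 and 2452 FPKM unwounded and 2052, 1286, 1417 and 2618 FPKM in wounds. At the abdomen and the back every wound library lay below every unwounded one, and at the cheek the library of mouse 4 ran the other way and the groups overlapped. The log2 differences of Col1a1 were -0.68 ± 0.21 (adjusted p = 0.0247) at the abdomen, -1.0 ± 0.21 (adjusted p = 0.00197) at the back and -0.84 ± 0.21 (adjusted p = 0.00734) at the cheek. The abdominal call ended when any single abdomen mouse was left out (adjusted p between 0.0537 and 0.0858), and the cheek call ended without cheek mouse 2 (adjusted p = 0.052) and in the 8 cheek libraries alone (0.0656). Without cheek mouse 4 the cheek difference was -1.15 (adjusted p = 0.000435).

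Abdominal Col1a2 measured 3763, 5373, 4177 and 5802 FPKM unwounded and 1969.8, 2438, 2350.5 and 3237 FPKM in wounds. Back Col1a2 measured 4736, 5587, 7356 and 6771 FPKM unwounded and 2309, 2117, 2633 and 3108 FPKM in wounds. Cheek Col1a2 measured 3306, 4292, 3655 and 2564 FPKM unwounded and 1906, 1189, 1289.9 and 2394 FPKM in wounds. The wound and unwounded groups did not overlap at any site. Wound minus unwounded log2 differences of Col1a2 were -0.94 ± 0.21 (adjusted p = 0.00566) at the abdomen, -1.26 ± 0.21 (adjusted p = 0.000479) at the back and -1.06 ± 0.21 (adjusted p = 0.00209) at the cheek. On this scale Col1a2 was thus 1.91-fold lower in abdomen wounds, 2.4-fold lower in back wounds and 2.09-fold lower in cheek wounds. The ratio of Col1a1 to Col1a2 was higher in the wound in 12 of 12 mice, at 0.902 ± 0.0538 unwounded and 1.08 ± 0.0931 in wounds at the abdomen, 0.926 ± 0.067 and 1.11 ± 0.0391 at the back, and 0.935 ± 0.0574 and 1.09 ± 0.0102 at the cheek. A ratio within a library does not change when the library is scaled by 1 factor, though quantile normalization can change it.

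Abdominal Col3a1 measured 2972, 4398, 4183 and 4756 FPKM unwounded and 2581, 2940.2, 2288 and 3306 FPKM in wounds. Back Col3a1 measured 3804, 4044, 5492 and 5100.3 FPKM unwounded and 3381, 2938, 3133 and 3630.2 FPKM in wounds. Cheek Col3a1 measured 3536, 3960.1, 3521 and 2483 FPKM unwounded and 2865, 1996, 2540.2 and 3652 FPKM in wounds. Back wounds lay below all unwounded back libraries, while the groups overlapped at the abdomen and the cheek. On the log2 scale the wound effects of Col3a1 were -0.54 ± 0.20 (adjusted p = 0.0482) at the abdomen, -0.48 ± 0.20 (adjusted p = 0.0594) at the back and -0.30 ± 0.20 (adjusted p = 0.245) at the cheek. The abdominal call rested on a narrow margin: it ended in 9 of the 12 fits with a mouse omitted, of any site, and the adjusted p without abdomen mouse 3 was 0.181. It also ended under both scalings between libraries (by median ratios and by quantiles), without the filter and without the trend and robustness of the limma fit (adjusted p up to 0.0854). Without cheek mouse 4, Col3a1 was called lower in cheek wounds (-0.59, adjusted p = 0.0163). The ratio of Col1a1 to Col3a1 was lower in the wound in 11 of 12 mice. It was 1.06 unwounded and 0.967 in wounds at the abdomen, 1.22 and 0.86 at the back, and 0.955 and 0.659 at the cheek, with the 4 cheek wounds at 0.716, 0.644, 0.558 and 0.717.

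**Figure D3:**
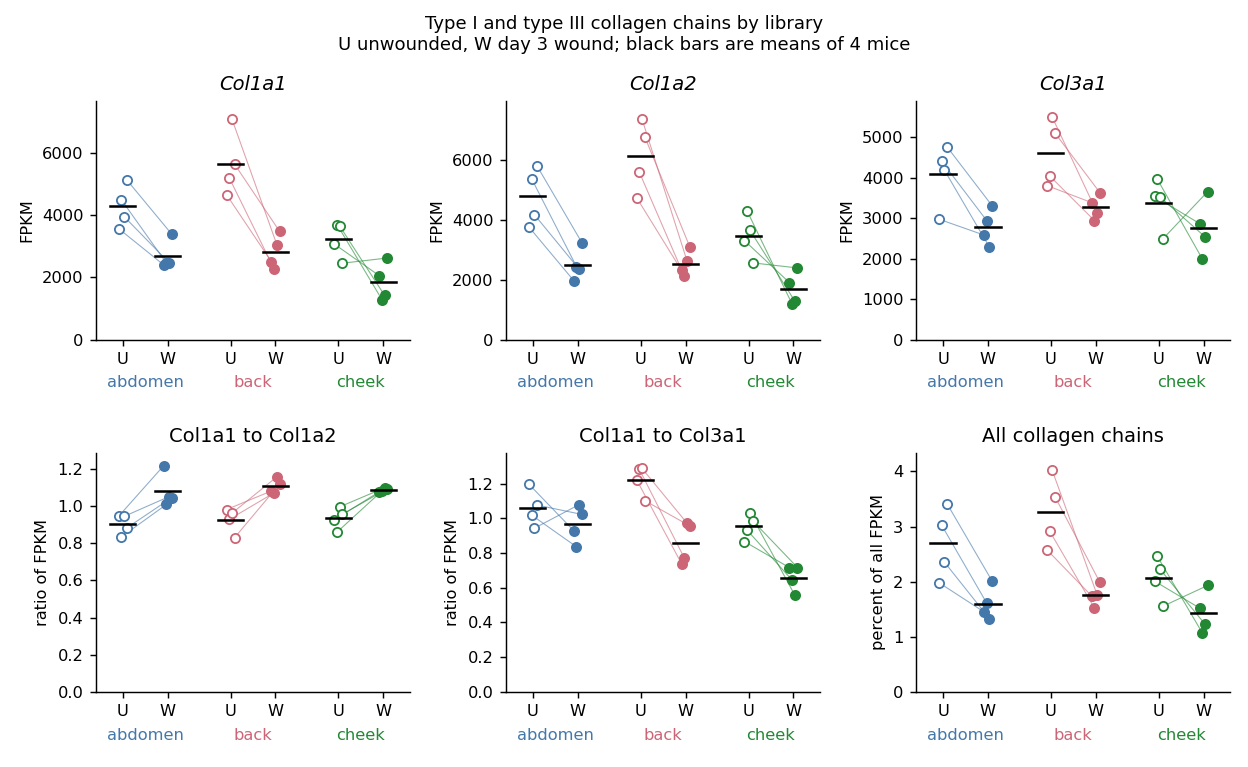
Col1a1, Col1a2 and Col3a1 (y axis, FPKM), their ratios and the share of all collagen chains in all FPKM, by library at the 3 sites (x axis, U unwounded and W wound); a line joins the libraries of a mouse and black bars are means of 4 mice. Col1a2 falls in every mouse, the ratio of Col1a1 to Col1a2 climbs in every mouse, and the line of cheek mouse 4 rises for Col1a1 and Col3a1.

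Of the 6 quantitatively minor fibrillar chains tested, Col5a3, Col24a1 and Col27a1 were called higher at 3 sites, Col5a1 and Col5a2 at 2 and Col11a1 at none. Col5a3, a chain of type V collagen, had the largest wound effect of the class. Abdominal Col5a3 measured 15.7, 15.2, 12.6 and 14 FPKM unwounded and 52, 26.3, 34.8 and 45.2 FPKM in wounds. Back Col5a3 measured 10.2, 15.6, 15.7 and 11.3 FPKM unwounded and 71.3, 67.5, 62 and 62.8 FPKM in wounds. Cheek Col5a3 measured 18.4, 17.8, 16.5 and 12.6 FPKM unwounded and 51.8, 51.5, 55.1 and 55.1 FPKM in wounds. Wound libraries exceeded all unwounded ones at every site, and the lowest wound value, 26.3 FPKM, came from an abdomen. In log2 units the wound effects of Col5a3 were 1.39 ± 0.16 (adjusted p = 8.08e-05) at the abdomen, 2.3 ± 0.16 (adjusted p = 8.57e-07) at the back and 1.69 ± 0.16 (adjusted p = 9.30e-06) at the cheek. Col5a1 and Col5a2, the chains that make up most type V collagen, were called higher at the back and the cheek. Col5a1 had a mean of 73.5 ± 14.2 FPKM in unwounded back and 101 ± 2.86 in back wounds, and 68 ± 6.31 and 104 ± 14.6 at the cheek (log2 differences 0.47 and 0.61). Col5a2 went from 107 ± 25.1 to 144 ± 5.74 FPKM at the back and from 94.4 ± 12.6 to 148 ± 17.6 at the cheek (0.46 and 0.65). At the abdomen their log2 differences were 0.14 (adjusted p = 0.492) and 0.00 (adjusted p = 0.996). The back calls of both ended without back mouse 1, 2 or 4 (adjusted p between 0.0567 and 0.157), and under both scalings between libraries (adjusted p up to 0.107 for Col5a1 and 0.184 for Col5a2). The Col5a2 back call also ended without the filter on low values.

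Col24a1 and Col27a1, fibrillar chains of low abundance, were higher in wounds at all 3 sites. Col24a1 passed the filter only through its wound libraries, so that its rise was partly built in. Col27a1 averaged 1.02, 0.637 and 1.06 FPKM in unwounded abdomen, back and cheek and 1.81, 2.1 and 2.33 in wounds (log2 differences 0.60, 1.2 and 0.89). Col24a1 averaged 0.138, 0.09 and 0.268 FPKM unwounded and 0.487, 0.838 and 0.875 in wounds (0.58, 1.18 and 0.83). The abdominal calls of both ended without abdomen mouse 1 or 3 (adjusted p between 0.0598 and 0.0889), and that of Col24a1 also under scaling by quantiles (0.0857). Col11a1 was not called anywhere, and its cheek difference of -0.60 became 0.02 without cheek mouse 4. Its highest value, 5.13 FPKM, was in the unwounded cheek library of mouse 4, against means of 0.512 and 0.357 FPKM in unwounded abdomen and back.

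The 6 type IV chains split into 2 sets. Col4a1 (chr8:11198423-11312889, minus strand) and Col4a2 (chr8:11312805-11449287, plus strand), which build the basement membrane of vessels, nerves, fat and epidermis, were higher in wounds at every site. Col4a3, Col4a4, Col4a5 and Col4a6, whose networks are restricted to certain epithelia, were lower at every site. Abdominal Col4a1 measured 54.2, 55.8, 52.3 and 60.4 FPKM unwounded and 109.7, 83, 72 and 75 FPKM in wounds. Back Col4a1 measured 56.5, 67.2, 56.3 and 50.4 FPKM unwounded and 108, 107, 97.3 and 98 FPKM in wounds. Cheek Col4a1 measured 60.1, 69.5, 60.6 and 81.1 FPKM unwounded and 92.5, 111, 157 and 144 FPKM in wounds. All wound libraries lay above all unwounded libraries of their site. Log2 wound effects of Col4a1 were 0.59 ± 0.13 (adjusted p = 0.00444) at the abdomen, 0.83 ± 0.13 (adjusted p = 0.000237) at the back and 0.87 ± 0.13 (adjusted p = 0.000255) at the cheek.

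Abdominal Col4a2 measured 34, 33, 29.4 and 36.7 FPKM unwounded and 63.4, 45.7, 39 and 43.9 FPKM in wounds. Back Col4a2 measured 34.7, 43.2, 37.8 and 31.5 FPKM unwounded and 61.5, 57.1, 55.7 and 56.4 FPKM in wounds. Cheek Col4a2 measured 35, 40.4, 37.8 and 47.2 FPKM unwounded and 51, 59.1, 89.4 and 81.7 FPKM in wounds. The groups again did not overlap at any site. Log2 wound effects of Col4a2 were 0.50 ± 0.13 (adjusted p = 0.00962) at the abdomen, 0.65 ± 0.13 (adjusted p = 0.00124) at the back and 0.77 ± 0.13 (adjusted p = 0.00055) at the cheek. The abdominal call of Col4a2 ended without abdomen mouse 1 (adjusted p = 0.0537). The ratio of Col4a1 to Col4a2 stayed within a narrow band, 1.68, 1.57 and 1.69 in unwounded abdomen, back and cheek, and was higher in the wound in 12 of 12 mice (1.78, 1.78 and 1.8).

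The restricted chains were scarcer by far. Col4a5 averaged 6.26 ± 0.673, 4.31 ± 1.24 and 4.84 ± 0.339 FPKM in unwounded abdomen, back and cheek and 2.96 ± 0.796, 2.33 ± 0.345 and 2.37 ± 0.712 in wounds (log2 differences -0.99, -0.74 and -0.93). Col4a6, its head-to-head neighbour and partner in the epidermal basement membrane, went from 3.4 ± 0.46, 2.92 ± 0.144 and 2.81 ± 0.439 FPKM to 1.55 ± 0.42, 1.16 ± 0.0275 and 1.05 ± 0.367 (-0.95, -1.04 and -1.12). Both lay lower in all 12 wounds than in the unwounded skin of the same mouse. Col4a3 and Col4a4 lay near 1 FPKM in unwounded skin (group means 0.955 to 1.36) and at 0.233 to 0.39 FPKM in wounds. The log2 differences were -0.75, -1.3 and -0.97 for Col4a3 and -0.87, -1.18 and -1.14 for Col4a4. Both passed the filter on low values through their unwounded libraries, with 1 and 2 of 12 wound libraries at 0.5 FPKM or more, so their falls were partly built into it and those of Col4a5 and Col4a6 were not. Adjusted p over these 4 chains and 3 sites ran from 1.93e-05 to 0.00384, and for Col4a5 and Col4a6 from 0.000245 to 0.00384. In none of the 12 did wound and unwounded libraries overlap, a separation that was not counted over all genes.

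**Figure D4:**
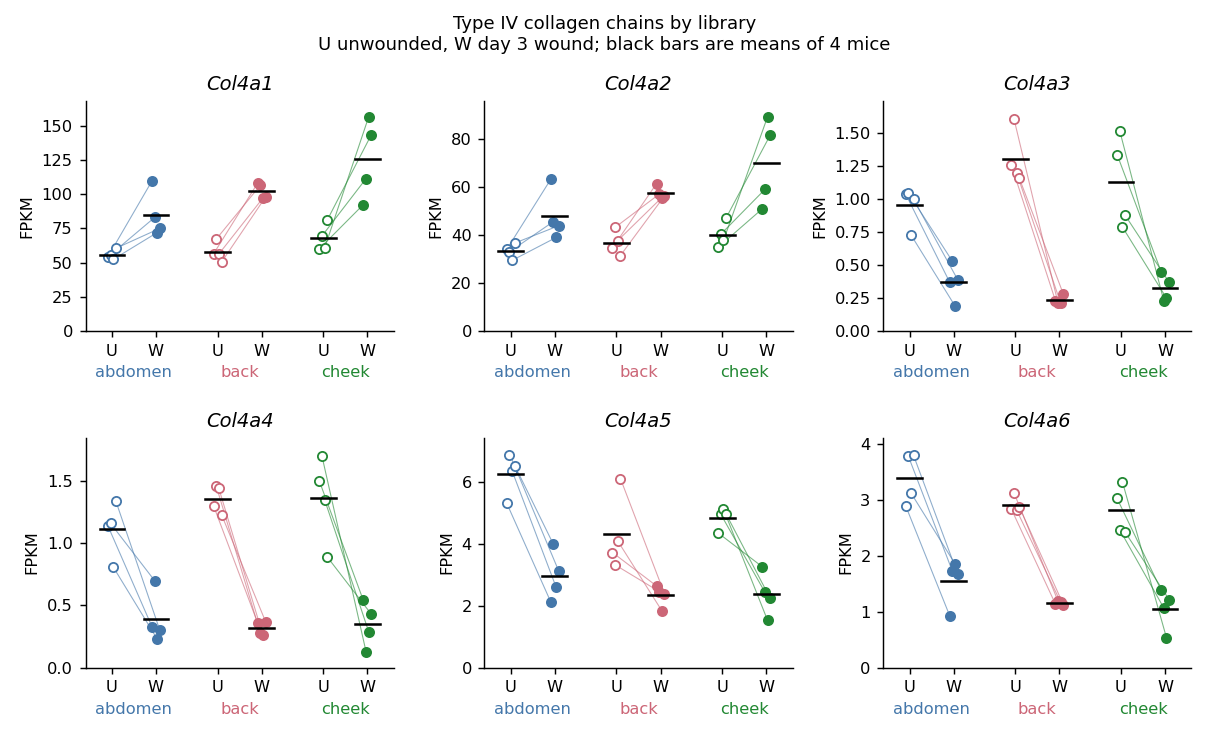
The 6 type IV chains (y axis, FPKM, from 0) by library at the 3 sites (x axis, U unwounded and W wound), with a line for each mouse and black bars for means of 4 mice. Lines rise for Col4a1 and Col4a2, to between 72 and 157 FPKM for Col4a1 in wounds, and descend for Col4a3 to Col4a6.

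Col7a1 (chr9:108953586-108984875, plus strand), the chain of the anchoring fibril, was higher in wounds at every site. Abdominal Col7a1 measured 7.23, 7.69, 6.99 and 8.35 FPKM unwounded and 9.17, 8.93, 11.1 and 9.21 FPKM in wounds. Back Col7a1 measured 5.6, 5.25, 4.88 and 6.13 FPKM unwounded and 8.98, 9.68, 7.43 and 8.79 FPKM in wounds. Cheek Col7a1 measured 4.58, 4.01, 4.77 and 4.79 FPKM unwounded and 7.86, 9.14, 8.54 and 9.52 FPKM in wounds. The lowest wound value exceeded the highest unwounded value at each site. By site, the log2 wound effects of Col7a1 were 0.32 ± 0.10 (adjusted p = 0.0231) at the abdomen, 0.63 ± 0.10 (adjusted p = 0.000271) at the back and 0.88 ± 0.10 (adjusted p = 3.14e-05) at the cheek. In wounds the 3 site means lay between 8.72 and 9.6 FPKM, although the unwounded means ran from 4.54 to 7.57 FPKM. The abdominal call ended without abdomen mouse 1 or 3 (adjusted p = 0.0599 and 0.135), and in the 8 abdomen libraries alone (0.0666).

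Types XV and XVIII are related basement membrane proteoglycans that carry antiangiogenic fragments at their ends. They did not move together. Col18a1, whose fragment is endostatin, rose from 30.4 ± 1.44, 24.9 ± 2.39 and 30.5 ± 8.87 FPKM in unwounded abdomen, back and cheek to 54.1 ± 5.81, 59.9 ± 4.34 and 62.3 ± 10.3 in wounds, without overlap at any site. The fitted log2 wound effects of Col18a1 were 0.82 ± 0.10 (adjusted p = 0.000106) at the abdomen, 1.25 ± 0.10 (adjusted p = 1.71e-06) at the back and 1.05 ± 0.10 (adjusted p = 8.05e-06) at the cheek. Col15a1 (chr4:47207655-47313167, plus strand) was the more abundant of the pair in unwounded skin. Abdominal Col15a1 measured 41.4, 54.7, 45.3 and 60.2 FPKM unwounded and 39.6, 46.8, 37.6 and 47.4 FPKM in wounds. Back Col15a1 measured 54, 57.9, 63.4 and 57.9 FPKM unwounded and 41.2, 39.6, 36.4 and 46.1 FPKM in wounds. Cheek Col15a1 measured 36.5, 47, 44.7 and 36.1 FPKM unwounded and 44.3, 42.2, 35.2 and 42.7 FPKM in wounds. Back wounds fell below every unwounded back library, whereas the cheek groups overlapped, with the wound higher in 2 of 4 mice. The fitted log2 wound effects of Col15a1 were -0.22 ± 0.11 (adjusted p = 0.125) at the abdomen, -0.51 ± 0.11 (adjusted p = 0.00209) at the back and 0.01 ± 0.11 (adjusted p = 0.976) at the cheek.

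The 3 main chains of type VI collagen, which assemble together into beaded microfilaments, were higher in wounds at every site, and Col6a3, the large chain, rose most. Abdominal Col6a1 measured 110.2, 153, 129.97 and 157 FPKM unwounded and 202, 163, 149 and 209 FPKM in wounds. Back Col6a1 measured 164, 149.96, 200.02 and 144 FPKM unwounded and 261, 237, 223 and 261 FPKM in wounds. Cheek Col6a1 measured 159, 162, 180.1 and 140.1 FPKM unwounded and 242, 241, 242 and 268 FPKM in wounds. Col6a1 (chr10:76708792-76726044, minus strand) was higher in 12 of 12 wounds, and the groups overlapped at the abdomen alone. Wound minus unwounded log2 differences of Col6a1 were 0.39 ± 0.14 (adjusted p = 0.0416) at the abdomen, 0.58 ± 0.14 (adjusted p = 0.00397) at the back and 0.63 ± 0.14 (adjusted p = 0.00321) at the cheek. Leaving out abdomen mouse 1 ended the abdominal call (adjusted p = 0.211), as did leaving out abdomen mouse 3 or 4, back mouse 1 or 2, or cheek mouse 1 (adjusted p between 0.051 and 0.104), scaling by quantiles, dropping the filter or using the 8 abdomen libraries alone (up to 0.164).

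Abdominal Col6a2 measured 108, 160.3, 142 and 159 FPKM unwounded and 211, 173, 182 and 219.9 FPKM in wounds. Back Col6a2 measured 193, 157, 209 and 144 FPKM unwounded and 272, 261, 247 and 309 FPKM in wounds. Cheek Col6a2 measured 161, 176, 206 and 161 FPKM unwounded and 246, 247, 247 and 288 FPKM in wounds. No wound library of Col6a2 (chr10:76595756-76623630, minus strand) fell within the unwounded range of its site. On the log2 scale the wound effects of Col6a2 were 0.47 ± 0.15 (adjusted p = 0.0281) at the abdomen, 0.64 ± 0.15 (adjusted p = 0.004) at the back and 0.55 ± 0.15 (adjusted p = 0.0127) at the cheek. Its abdominal call ended without abdomen mouse 1, 3 or 4 (adjusted p = 0.146, 0.058 and 0.0748), under scaling by quantiles and in the 8 abdomen libraries alone (up to 0.0847), and its cheek call without cheek mouse 4 (0.0557). The ratio of Col6a1 to Col6a2 lay between 0.903 and 0.969 in the 6 groups and showed no common direction, being higher in the wound in 5 of 12 mice.

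Abdominal Col6a3 measured 20.9, 33.6, 24.4 and 36.6 FPKM unwounded and 78.2, 47.9, 44.1 and 63.2 FPKM in wounds. Back Col6a3 measured 38.9, 35.2, 44.5 and 29.2 FPKM unwounded and 85.3, 78.6, 67.4 and 72.4 FPKM in wounds. Cheek Col6a3 measured 31.6, 41.9, 42.6 and 38.2 FPKM unwounded and 78.5, 92.4, 107 and 109 FPKM in wounds. The groups were separate at all sites for Col6a3 (chr1:90766860-90844001, minus strand), and cheek wounds held the highest values. In log2 units the wound effects of Col6a3 were 1.0 ± 0.18 (adjusted p = 0.00151) at the abdomen, 1.04 ± 0.18 (adjusted p = 0.000569) at the back and 1.31 ± 0.18 (adjusted p = 0.00016) at the cheek. The ratio of Col6a3 to Col6a1 was higher in the wound in 12 of 12 mice, 0.208 against 0.32 at the abdomen, 0.224 against 0.31 at the back and 0.242 against 0.389 at the cheek. The other type VI chains did not follow. Col6a5 averaged 0.573 to 0.993 FPKM and Col6a6 0.887 to 2.0 FPKM over the groups, and neither was called at any site.

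Type VIII, a network collagen found in vessel walls and in the Descemet membrane of the cornea, had its 2 chains move in opposite directions. Col8a1 averaged 1.45 ± 0.566, 1.65 ± 0.284 and 1.98 ± 0.244 FPKM in unwounded abdomen, back and cheek and 5.21 ± 1.3, 8.65 ± 0.364 and 9.88 ± 4.89 in wounds. Log2 wound effects of Col8a1 were 1.57 ± 0.22 (adjusted p = 0.000299) at the abdomen, 2.1 ± 0.22 (adjusted p = 1.61e-05) at the back and 1.93 ± 0.22 (adjusted p = 4.15e-05) at the cheek. Col8a2 went from 3.75 ± 0.217 to 2.3 ± 0.496 FPKM at the abdomen and from 3.52 ± 0.765 to 2.34 ± 0.763 at the cheek (-0.62 and -0.52, both called lower), and at the back its difference was -0.32 ± 0.17 (adjusted p = 0.132). The Col8a2 calls ended without abdomen mouse 1 or 3 at the abdomen and without cheek mouse 2, 3 or 4 at the cheek (adjusted p between 0.0544 and 0.11).

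The largest wound effect of any collagen chain belonged to Col12a1 (chr9:79598987-79721141, minus strand), a FACIT chain that bridges neighbouring fibrils. Abdominal Col12a1 measured 2.28, 3.16, 2.05 and 2.97 FPKM unwounded and 22.2, 7.52, 8.52 and 13.3 FPKM in wounds. Back Col12a1 measured 2.05, 2.17, 2.57 and 2.7 FPKM unwounded and 18.9, 21.4, 16.7 and 13.4 FPKM in wounds. Cheek Col12a1 measured 2.31, 2.09, 2.51 and 6.75 FPKM unwounded and 16.9, 19.7, 22.1 and 33.5 FPKM in wounds. Wound values exceeded unwounded values at every site, and the unwounded cheek library of mouse 4 stood above the other 11 unwounded ones. By site, the log2 wound effects of Col12a1 were 1.99 ± 0.24 (adjusted p = 0.000143) at the abdomen, 2.64 ± 0.24 (adjusted p = 8.03e-06) at the back and 2.68 ± 0.24 (adjusted p = 8.90e-06) at the cheek. On this scale Col12a1 was 3.99-fold higher in abdomen wounds, 6.24-fold in back wounds and 6.42-fold in cheek wounds, and 2.84 on the log2 scale at the cheek without mouse 4.

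Its closest relative, Col14a1 (chr15:55307644-55520803, plus strand), was not called at any site. Abdominal Col14a1 measured 13.1, 25.6, 20.8 and 23.3 FPKM unwounded and 17.1, 17.5, 14 and 23 FPKM in wounds. Back Col14a1 measured 13.5, 17.7, 32.8 and 21.4 FPKM unwounded and 34, 25.2, 28.1 and 31.3 FPKM in wounds. Cheek Col14a1 measured 19.6, 19.98, 17.2 and 17.9 FPKM unwounded and 32.8, 21.7, 24.8 and 25.5 FPKM in wounds. The groups overlapped at the abdomen and the back, and at the cheek the wounds were higher in 4 of 4 mice. The fitted log2 wound effects of Col14a1 were -0.18 ± 0.21 (adjusted p = 0.521) at the abdomen, 0.53 ± 0.21 (adjusted p = 0.0527) at the back and 0.46 ± 0.21 (adjusted p = 0.097) at the cheek. Col16a1 (chr4:130047817-130099277, plus strand), a FACIT chain of the dermal-epidermal junction zone, was called higher at the back alone, by a small margin. Abdominal Col16a1 measured 23.4, 24.8, 22.5 and 28.5 FPKM unwounded and 21.4, 24.6, 23.7 and 27.1 FPKM in wounds. Back Col16a1 measured 21.9, 23, 31 and 21.2 FPKM unwounded and 27.2, 30.7, 30.1 and 28.2 FPKM in wounds. Cheek Col16a1 measured 18.8, 20.5, 23.7 and 23.1 FPKM unwounded and 25.2, 23.3, 23.7 and 26.1 FPKM in wounds. Wounds and unwounded skin overlapped at every site. Wound minus unwounded log2 differences of Col16a1 were -0.03 ± 0.09 (adjusted p = 0.8) at the abdomen, 0.27 ± 0.09 (adjusted p = 0.0234) at the back and 0.19 ± 0.09 (adjusted p = 0.0999) at the cheek. The back call of Col16a1 ended without back mouse 1, 2 or 4 (adjusted p = 0.0683, 0.111 and 0.0956), under both scalings between libraries and in the 8 back libraries alone (up to 0.166). Col20a1, at 1.05 to 1.25 FPKM in unwounded skin, was lower in wounds at all sites (0.58 to 0.74 FPKM). Its log2 differences were -0.53, -0.68 and -0.46, the abdominal call ending without abdomen mouse 1 (adjusted p = 0.0631) and in the 8 abdomen libraries alone (0.0697), and the cheek call without cheek mouse 2 or 3 (0.0555 and 0.106).

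Col17a1 (chr19:47646341-47692042, minus strand), the transmembrane collagen of the hemidesmosomes by which basal keratinocytes hold to the basement membrane, was the most abundant chain outside the fibrillar and type VI families. Abdominal Col17a1 measured 191, 195, 204 and 208 FPKM unwounded and 143, 163, 143 and 148 FPKM in wounds. Back Col17a1 measured 164, 178, 156 and 146 FPKM unwounded and 145, 135, 117 and 106 FPKM in wounds. Cheek Col17a1 measured 145, 142, 147 and 121 FPKM unwounded and 125, 129, 115 and 137 FPKM in wounds. It was lower in every abdomen and back wound than in any unwounded library of the site, and the cheek groups overlapped. On the log2 scale the wound effects of Col17a1 were -0.42 ± 0.09 (adjusted p = 0.00402) at the abdomen, -0.36 ± 0.09 (adjusted p = 0.00575) at the back and -0.13 ± 0.09 (adjusted p = 0.268) at the cheek. Without cheek mouse 4 the cheek difference was -0.23 (adjusted p = 0.0587). The sum of 8 keratinocyte markers was 5130 to 9449 FPKM in unwounded libraries and 9828 to 17895 FPKM in wounds, where Krt14 and Krt1 were called higher at all sites (log2 differences 1.54, 1.99 and 1.94, and 1.47, 1.45 and 1.9). Called keratinocyte markers were 2 higher and 1 lower at the abdomen, 4 and 1 at the back and 5 and 0 at the cheek. The marker called lower was Trp63, a transcription factor of basal keratinocytes (-0.33 at the abdomen, adjusted p = 0.0365, and -0.30 at the back, adjusted p = 0.0425). The part of these markers in the Col17a1 values was not tested.

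The other transmembrane chains were at low levels. Abdominal Col13a1 measured 1.96, 1.42, 1.49 and 1.22 FPKM unwounded and 2.23, 1.91, 1.64 and 1.03 FPKM in wounds. Back Col13a1 measured 0.43, 1.0, 0.76 and 0.86 FPKM unwounded and 1.19, 1.38, 1.46 and 0.91 FPKM in wounds. Cheek Col13a1 measured 0.76, 1.04, 1.35 and 1.41 FPKM unwounded and 1.52, 1.59, 2.53 and 1.3 FPKM in wounds. Col13a1 (chr10:61838234-61979206, minus strand) values of wound and unwounded skin overlapped at all sites. In log2 units the wound effects of Col13a1 were 0.10 ± 0.16 (adjusted p = 0.65) at the abdomen, 0.47 ± 0.16 (adjusted p = 0.0293) at the back and 0.44 ± 0.16 (adjusted p = 0.0481) at the cheek. The back call ended without back mouse 1, 2 or 3 (adjusted p = 0.143, 0.0537 and 0.109), and the cheek call in 9 of the 12 fits with a mouse omitted, up to 0.19 without cheek mouse 3. Scaling by quantiles and leaving out the term for the mouse ended both calls, and the cheek call ended under 4 more settings (adjusted p up to 0.0661 at the back and 0.101 at the cheek).

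Abdominal Col23a1 measured 5.64, 6.08, 4.83 and 6.64 FPKM unwounded and 5.31, 5.42, 4.45 and 5.71 FPKM in wounds. Back Col23a1 measured 5.26, 4.53, 4.5 and 5.68 FPKM unwounded and 4.59, 3.89, 4.45 and 3.99 FPKM in wounds. Cheek Col23a1 measured 5.49, 5.53, 5.89 and 4.41 FPKM unwounded and 5.53, 7.07, 11.8 and 9.25 FPKM in wounds. Col23a1 (chr11:51289679-51583925, plus strand) was lower in 4 of 4 abdomen and 4 of 4 back wounds and higher in 4 of 4 cheek wounds, with overlapping groups throughout. By site, the log2 wound effects of Col23a1 were -0.14 ± 0.14 (adjusted p = 0.488) at the abdomen, -0.21 ± 0.14 (adjusted p = 0.236) at the back and 0.57 ± 0.14 (adjusted p = 0.00754) at the cheek. Without cheek mouse 3, which had the highest wound value, the cheek difference had an adjusted p of 0.0513, and in the 8 cheek libraries alone 0.0643.

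The 9 chains that did not pass the filter over 24 libraries were Col2a1, Col6a4, Col9a1, Col9a2, Col10a1, Col11a2, Col19a1, Col22a1 and Col25a1, with no group mean above 0.485 FPKM. Several of these are cartilage collagens. The highest of them was Col22a1, a chain known from the junctions of muscle with tendon. It measured 0.07, 0.01, 0.03 and 0.12 FPKM in unwounded abdomen, 0.56, 0.55, 0.37 and 0.46 in back and 0.31, 0.17, 0.33 and 0.10 in cheek. All 4 back values lay above all abdomen values, at a level where rounding to 2 decimals limits the precision. In a fit without the filter its log2 difference was 0.82 for back minus abdomen (adjusted p = 0.00671) and -0.76 for back wounds against unwounded back (adjusted p = 0.000172). Skeletal muscle markers summed to 510 to 15500 FPKM in unwounded abdomen, 14120 to 22766 in back and 11482 to 22945 in cheek. Their part in the Col22a1 values was not tested. Of the chains outside the named classes, Col26a1 (0.172 to 0.54 FPKM as group means) and Col28a1 (0.53 to 1.28 FPKM) were not called in wounds at any site.

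Unwounded skin of the 3 sites was compared over the 12 unwounded libraries, where 13956 genes and 33 of the chains were tested, to ask how far resting skin differs in its collagen transcripts. Few chains differed. Between back and abdomen 1 of 33 was called (3.03%, against 2.67% of all genes and 2.14% lower in back) and between cheek and abdomen 2 (6.06%, against 2.57%, and 1.23% lower in cheek). Between cheek and back limma called 0 (against 1.05%), with 7 of 33 at an unadjusted p under 0.05 (21.6% of all genes). The shares for back against abdomen and cheek against back lie near or below the background. Over all genes tested, the median log2 difference was -0.12 for back minus abdomen and 0.14 for cheek minus back as deposited, so the chain values should be read against those medians.

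The 2 chains called, Col7a1 and Col17a1, both belong to structures that anchor the epidermis. Unwounded Col7a1, listed above, had no overlap between any 2 sites, in the order abdomen, back, cheek (7.57 ± 0.599, 5.46 ± 0.532 and 4.54 ± 0.364 FPKM). The log2 difference was -0.44 ± 0.10 (adjusted p = 0.0438) for back minus abdomen, -0.68 ± 0.10 (adjusted p = 0.00672) for cheek minus abdomen and -0.24 ± 0.10 (adjusted p = 0.207) for cheek minus back. The exact permutation p, not adjusted, was 0.0286 in each, the smallest 4 against 4 libraries can give. The call between cheek and abdomen held whichever mouse was left out. That between back and abdomen was lost in 9 of 12 such fits, for example without abdomen mouse 2 (adjusted p = 0.134), and under both scalings between libraries (adjusted p = 0.13 and 0.0858). Unwounded Col17a1 had the same order of means (199.5 ± 7.64, 161 ± 13.6 and 139 ± 11.8 FPKM), with back and cheek below every abdomen library. Its log2 difference was -0.52 ± 0.10 (adjusted p = 0.0176) for cheek minus abdomen, a call lost without abdomen mouse 2, abdomen mouse 3 or cheek mouse 2 (adjusted p = 0.0584, 0.0633 and 0.0597), and -0.31 ± 0.10 (adjusted p = 0.104) for back minus abdomen. The keratinocyte marker sum was 6582 to 8777 FPKM in unwounded abdomen, 6133 to 9449 in back and 5130 to 6712 in cheek, and its part in these differences was not tested.

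Col1a1, Col1a2 and Col3a1 were ordered differently, highest in back and lowest in cheek, without passing the adjusted test. Other fibrillar chains were not highest in back, with back minus abdomen at -0.06 for Col5a1, -0.07 for Col5a2, -0.14 for Col5a3 and -0.43 for Col27a1. Every back library of Col1a1 and of Col1a2 lay above every cheek library, a separation that was not counted over all genes. The exact permutation p given here are not adjusted, and 21.6% of all genes had an unadjusted limma p under 0.05 between cheek and back. For Col1a1 the cheek minus back difference was -0.81 ± 0.18 (adjusted p = 0.0523), against a median of 0.14 over all genes, and the exact permutation p was 0.0286. For Col1a2 it was -0.83 ± 0.20 (adjusted p = 0.0768), with the same exact p. Abdomen lay between and overlapped both. Col15a1 was likewise lower in cheek than in back without overlap (-0.51 ± 0.13 (adjusted p = 0.0865), exact permutation p = 0.0286). Scaling the libraries by median ratios brought these 3 chains past the threshold (adjusted p = 0.0278 for Col1a1, 0.0485 for Col1a2 and 0.0384 for Col15a1). Leaving out cheek mouse 4 left 0 calls.

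**Figure D5:**
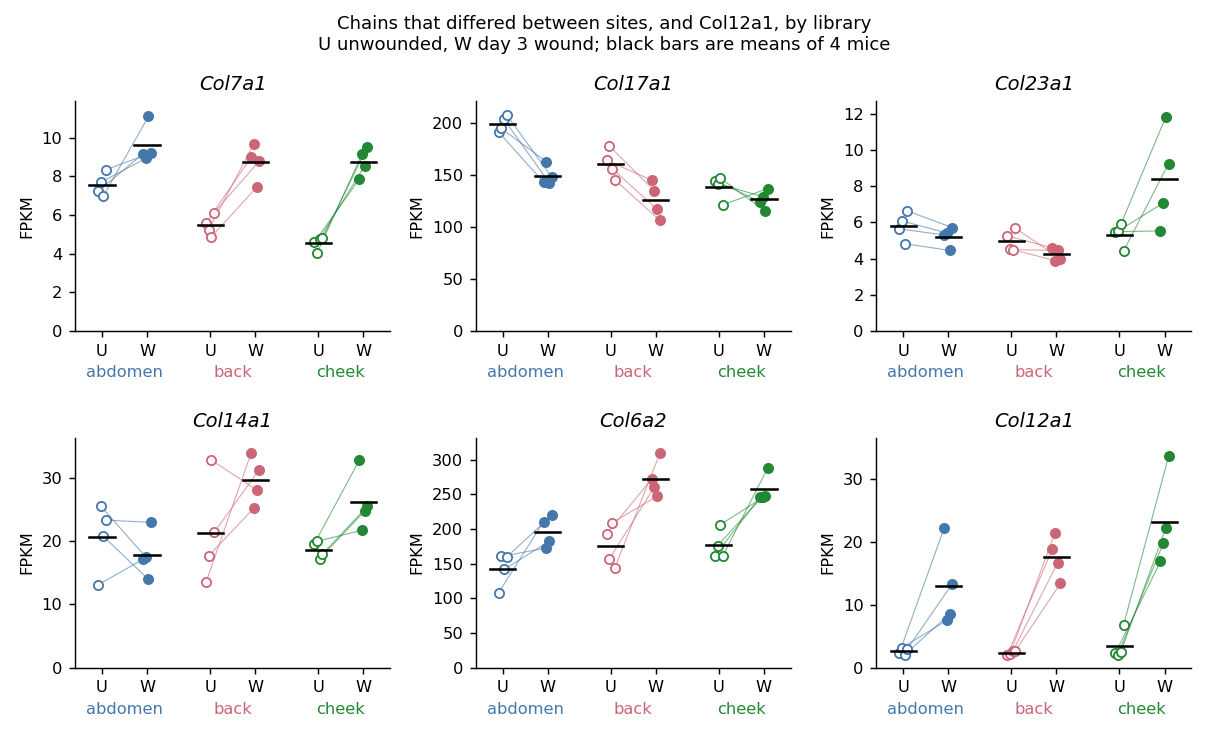
The 5 chains Col7a1, Col17a1, Col23a1, Col14a1 and Col6a2, each called in a comparison between sites, and Col12a1 (y axis, FPKM, from 0), by library at the 3 sites (x axis, U unwounded and W wound), with a line for each mouse and black bars for means of 4 mice. Unwounded Col7a1 and Col17a1 step down from abdomen to cheek, and Col23a1 rises in cheek wounds, where 1 library reached 11.8 FPKM.

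Wounds of the 3 sites were compared over the 12 wound libraries (14023 genes and 31 chains tested). Abdomen wounds had the lowest levels of several chains, but not of Col1a1 and Col1a2. These 2 chains were lower in cheek than in abdomen wounds, without a call (-0.58 and -0.60, limma adjusted p = 0.0964 and 0.0958). Between back and abdomen 3 of 31 chains were called, all higher in back (9.68%, against 1.27% of all genes and 0.506% higher). Between cheek and abdomen 6 were called, all higher in cheek (19.4%, against 10.8%, and 7.52% higher), and between cheek and back 1, higher in cheek (3.23%, against 2.5%, and 1.9% higher). The back chains were Col5a3 (0.77 ± 0.16 (adjusted p = 0.044)), Col6a2 (0.47 ± 0.10 (adjusted p = 0.044)) and Col14a1 (0.73 ± 0.15 (adjusted p = 0.045)). In each, all 4 back wounds lay above all 4 abdomen wounds, and each call was lost in 10 of the 12 fits with a mouse omitted, for example without back mouse 1 (adjusted p = 0.117, 0.11 and 0.12). All 3 also ended without the filter and without the trend and robustness of the fit (adjusted p up to 0.0803, 0.0934 and 0.111 over the settings tried).

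Cheek wounds exceeded abdomen wounds in all 3 main type VI chains. The log2 difference was 0.47 ± 0.11 (adjusted p = 0.0232) for Col6a1, 0.39 ± 0.10 (adjusted p = 0.0318) for Col6a2 and 0.75 ± 0.17 (adjusted p = 0.0219) for Col6a3, and no cheek wound fell within the abdomen range. Without abdomen mouse 3 the adjusted p were 0.0524, 0.0805 and 0.0593, and without cheek mouse 4 0.0566, 0.0732 and 0.0532, so that all 3 calls ended. That of Col6a2 also ended under median-ratio scaling and with all 24 libraries in 1 fit (up to 0.0803). The remaining cheek chains were Col4a1 (0.56 ± 0.16 (adjusted p = 0.0498)), Col14a1 (0.54 ± 0.15 (adjusted p = 0.0447)) and Col28a1 (0.77 ± 0.16 (adjusted p = 0.0174)). The first 2 were lost in 10 of 12 fits each, for example without abdomen mouse 3 (adjusted p = 0.136 and 0.12), which also ended the call of Col28a1 (0.0505). Both scalings also ended the calls of Col4a1 and Col14a1 (up to 0.0962 and 0.122 over the settings tried). Without cheek mouse 4 the calls were 3, namely Col28a1 (0.73, adjusted p = 0.0444), higher in cheek wounds, and Col1a1 (-0.77, adjusted p = 0.0472) and Col1a2 (-0.78, adjusted p = 0.0493), lower. Col23a1 was higher in cheek than in back wounds (0.87 ± 0.18 (adjusted p = 0.0358)), a call that ended without back mouse 2, 3 or 4 or cheek mouse 2, 3 or 4 (adjusted p between 0.0686 and 0.113) and under both scalings (up to 0.0855 over the settings tried).

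Whether the wound effect itself differed between sites was tested with a moderated F test in the limma fit over 24 libraries. It called 0 of the 35 chains and 3 of all 14423 genes (0.0208%). At an unadjusted p under 0.05 it picked 6 chains, against 12.9% of all genes: Col5a2, Col5a3, Col7a1, Col15a1, Col18a1 and Col23a1. The closest were Col23a1 (adjusted p = 0.228), Col5a3 (adjusted p = 0.236) and Col7a1 (adjusted p = 0.238). For Col23a1 the wound effect at the cheek exceeded that at the abdomen by 0.70 ± 0.20 and that at the back by 0.78 ± 0.20 on the log2 scale. A chain called at one site and not at another is therefore not shown here to respond differently at the 2 sites.

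Genes whose products fold, process, assemble, bind or cut collagen were counted from 5 lists. For the genes named, the 3 values in brackets are the log2 differences between wound and unwounded skin at abdomen, back and cheek in that order, and those said to be higher or lower had a limma adjusted p between 1.60e-07 and 0.0490. The shares of all genes called, 32.9%, 45.9% and 36.6% at abdomen, back and cheek, are the background for each list. Of 20 folding and modification genes tested, 11 were called at the abdomen (55%, 9 higher and 2 lower), 14 at the back (70%, 13 and 1) and 12 at the cheek (60%, 12 and 0). Against these stand 16.9%, 28% and 19.7% of all genes called higher. The prolyl hydroxylase subunit P4ha3 had mean levels of 0.168 ± 0.119, 0.138 ± 0.0918 and 0.0775 ± 0.033 FPKM in unwounded abdomen, back and cheek and 3.92 ± 2.77, 3.33 ± 2.18 and 4.36 ± 1.05 in wounds (2.41, 2.34 and 3.05), and passed the filter only through its wound libraries, so that its rise was partly built in. Plod2, the lysyl hydroxylase of collagen telopeptides, went from 0.72 ± 0.183, 0.797 ± 0.213 and 1.5 ± 0.515 FPKM to means of 4.75, 9.89 and 5.34 FPKM in wounds (2.1, 2.97 and 1.52). The largest falls were those of P3h2, a prolyl hydroxylase, called at the abdomen and the back (-0.61, -0.45 and -0.19), and Mia3, which helps load procollagen into transport carriers, called at the abdomen (-0.23, -0.03 and 0.02).

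Of 11 processing and cross-linking genes tested, 4 were called at the abdomen (36.4%, 1 higher and 3 lower), 5 at the back (45.5%, 3 and 2) and 5 at the cheek (45.5%, 4 and 1), shares near the background. Loxl3, a lysyl oxidase, was higher at all sites (1.57, 2.23 and 2.18), and Loxl1 was called higher at the cheek (0.32, 0.39 and 0.84). Pcolce2, an enhancer of procollagen C-proteinase, was lower at all sites (-1.2, -1.55 and -1.31), and Adamts2, which removes the N-propeptide of fibrillar procollagens, was lower at the abdomen and the back (-0.60, -0.75 and -0.42). Of 14 fibril assembly genes, 6 were called at the abdomen (42.9%, 1 higher and 5 lower), 4 at the back (28.6%, 2 and 2) and 5 at the cheek (35.7%, 3 and 2), below the background at the back and the cheek. Bgn, encoding the small proteoglycan biglycan, was higher at all sites (0.59, 0.73 and 1.02) and Thbs2 at the back and the cheek (0.53, 0.86 and 1.43), while Ogn (-1.4, -1.26 and -0.86) and Sparc (-0.91, -1.22 and -0.99) were lower at all sites. Sparc, a collagen-binding matricellular protein, had mean levels of 4349 ± 216, 5724 ± 975 and 3398 ± 972 FPKM unwounded and 2341 ± 393, 2450.01 ± 337 and 1701 ± 468 in wounds, the same order of sites as Col1a1.

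Of 10 collagen receptor genes tested, 4 were called at the abdomen (40%, 3 higher and 1 lower), 6 at the back (60%, 5 and 1) and 6 at the cheek (60%, 5 and 1). Lair1, an inhibitory collagen receptor of leukocytes, was higher at all sites (2.11, 1.75 and 1.96), as was Cd44 (0.92, 1.5 and 1.2). Lair1 passed the filter only through its wound libraries, so that its rise was partly built in. The discoidin domain receptor Ddr1 was lower at the back and the cheek (-0.19, -0.28 and -0.39) and Ddr2 at the abdomen (-0.55, -0.20 and 0.04). Of 10 collagen-degrading protease genes tested, 6 were called at the abdomen (60%), 6 at the back (60%) and 7 at the cheek (70%), all higher. However, 4 of the 10 (Mmp1b, Mmp8, Mmp10 and Mmp13) passed the filter only through their wound libraries, so these counts were partly built in. Mmp13, a collagenase, went from 0.24 ± 0.0906, 0.367 ± 0.199 and 0.367 ± 0.156 FPKM in unwounded abdomen, back and cheek to 11.9 ± 3.26, 15.3 ± 2.85 and 22.2 ± 6.37 in wounds (4.04, 4.19 and 4.69), and Mmp10, a stromelysin, was higher at all sites (2.72, 3.1 and 3.35). Mmp8 is also a neutrophil marker, and the neutrophil list is given below.

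Some partner genes were also called between sites. The share of partner genes called is not given here, so these are calls of single genes and not a result about the lists. Of all genes tested, 2.67%, 2.57% and 1.05% were called for unwounded back minus abdomen, cheek minus abdomen and cheek minus back. In wounds the shares were 1.27%, 10.8% and 2.5% in that order. In unwounded skin, Fmod (-0.98, adjusted p = 0.0409) and Kera (-0.92, adjusted p = 0.0399), small proteoglycans that bind fibrils, were lower in back than in abdomen. Comp was lower in cheek than in abdomen (-0.97, adjusted p = 0.0317), and Prelp (-0.84, adjusted p = 0.0168) and Adamts2 (-0.83, adjusted p = 0.0362) were lower in cheek than in back. In wounds, P4ha1, a catalytic subunit of prolyl hydroxylase, was higher in back than in abdomen (0.54, adjusted p = 0.0419) and lower in cheek than in back (-0.52, adjusted p = 0.0400). Fkbp10, Plod1 and Mmp8 were also higher in back than in abdomen wounds (0.48, 0.45 and 1.08). Crtap and P4ha2 were lower in cheek than in back wounds (-0.34 and -0.68). Cheek wounds exceeded abdomen wounds in the cross-linking enzymes Lox (0.61, adjusted p = 0.0415) and Loxl3 (0.64, adjusted p = 0.0498) and in Mmp13 (0.87, adjusted p = 0.0278). They were also higher in Tll1 (0.68), Sec23a (0.57), Ddr2 (0.45), Itga2 (0.82), Itgb1 (0.44) and Mmp8 (1.11), and lower in Ddr1 (-0.25). The calls of partner genes between sites were not checked in the fits that left out a mouse.

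Markers of several cell types also differed between wound and unwounded skin. The sum of 10 fibroblast markers, 2 of which (Dcn and Lum) are also on the fibril assembly list, was 4849 to 6412 FPKM in unwounded abdomen, 4240 to 5110 in back and 2809 to 5568 in cheek, and 2817 to 3843, 2698 to 3442 and 2287 to 3787 FPKM in wounds of the 3 sites. Dcn and Gsn were its most abundant members. Of the 10, Cd34, Dpt and Gsn were called lower at all sites and Dcn at the abdomen, whereas Pdgfra (0.58 and 0.59) and Pdgfrb (0.52 and 0.77) were called higher at the back and the cheek. The sum of 8 endothelial markers was 89.8 to 139.9 FPKM in unwounded libraries and 132 to 164 in wounds, with all 8 markers at a mean of 0.5 FPKM or more in every group. By range, Pecam1, Cdh5, Emcn and Tie1 were higher in wounds at every site. Wound and unwounded ranges overlapped for Kdr at the back and for Tek, Vwf and Cldn5 at every site. Macrophage markers summed to 477 to 1039 FPKM unwounded and 1301 to 2534 in wounds, and neutrophil markers to 17.8 to 71.2 and 361 to 2401 FPKM. S100a8 and S100a9 were the most abundant neutrophil markers in wounds. They lay higher in wounds at every site, as did Csf3r, Cxcr2, Mmp8 and Retnlg, while Ly6g stayed at or below 0.9 FPKM. Mpo went the other way, at 23.0 to 36.85 FPKM in unwounded abdomen and 10.24 to 23.41 in abdomen wounds. At the back it was 7.58 to 11.25 and 3.74 to 7.61, and at the cheek 9.01 to 19.19 and 2.11 to 7.29. Adipocyte markers summed to 838 to 2875 FPKM unwounded and 628 to 1448 FPKM in wounds, with 8, 8 and 7 of 8 called lower at abdomen, back and cheek. Schwann cell markers summed to 182 to 635 and 101 to 286 FPKM, with 3, 6 and 0 of 8 called lower. Skeletal muscle markers at the back and the cheek summed to 11482 to 22945 FPKM unwounded and 3131 to 7021 FPKM in wounds, with 6 of 8 called lower at the back and 0 at the abdomen and the cheek. At the abdomen these markers were uneven between mice, at 15500, 510, 2741 and 14286 FPKM unwounded and 1748, 2486, 4192 and 5425.5 FPKM in wounds. Pericyte and smooth muscle markers summed to 179.8 to 333 FPKM unwounded and 223 to 279 in wounds, and did not move alike. By range, Rgs5 was higher in wounds at every site, and Acta2, the most abundant, at the back and the cheek. Myh11, Cnn1 and Kcnj8 were lower in wounds at the abdomen and the back and overlapped at the cheek. Tagln, Cspg4 and Notch3 overlapped at every site. The part of these marker levels in the collagen results was not tested.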

How the data were processed

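RNA of wound and unwounded skin was measured in 24 libraries from 12 mice. The authors deposited FPKM values per library, made by a sequencing provider from paired-end reads by mapping with HISAT2 and Bowtie2 2.2.5 to mm10 and quantification with RSEM 1.2.12 (tools as named in the submitters' processing notes), rounded to 2 decimals and not scaled between libraries. A second deposited table holds log2 fold changes and adjusted p-values of the authors' own comparisons from DESeq2 and was not used. Of the per-sample columns, 0 were left unused.

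Values were taken as log2(FPKM + 0.5), and genes that reached 0.5 FPKM in 4 or more libraries of a fit were tested with limma 3.58.1 (statmod 1.5.0, R 4.3.3), with a variance trend and robust moderation. Wound effects were fitted over 24 libraries with a term for each mouse, and sites within the 12 unwounded or the 12 wound libraries. Benjamini-Hochberg adjustment covered all genes tested in a comparison, with a threshold of 0.05. Single chains were also checked by two-sided exact permutation of FPKM, whose smallest p is 0.0286 for 4 against 4 libraries and 0.125 for sign changes within 4 mice, so the latter cannot reach the threshold. The exact p were not adjusted, and groups without overlap were not counted over all genes. The fits were tested on simulated data. The labels give both libraries of a mouse 1 number and site, and across genes their deviations from the group means correlated with a mean r of 0.322, 0.348 and 0.281 at abdomen, back and cheek (lowest -0.0299), against -0.108, -0.116 and -0.0958 for different mice.

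The chains, classes, partner genes and markers were chosen with earlier results of these data known. Values in every library are given for the chains with the highest mean FPKM in each class, up to 3, where that mean was at least 1 FPKM, and for chains called in both comparisons of 1 site with the others. Col5a3 and Col22a1 were given in full after their values were seen. From each partner list the 2 largest rises and 2 largest falls were named among the called genes, and the genes called between sites were named after their values were seen. Alternatives were pseudocounts of 0.1 and 1 FPKM, no filter, quantile normalization, median-ratio scaling, plain moderation (no trend, not robust), other sets of libraries and blocks, a threshold of 0.001, and each mouse left out in turn.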

Additional observations from a re-analysis of the deposited data

Results flagged for a closer look

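Of 96 groups of 4 libraries (16 chains in 6 groups), 5 held a library far from the other 3, where chance flags about 1 in 20. The count thus lies near that of chance. Col12a1 measured 6.75 FPKM in the unwounded cheek library of mouse 4, against 2.09 to 2.51 FPKM in the other 3, and the same library held a growing hair follicle marker sum of 3338 FPKM. In abdomen wounds, Col1a1 measured 3383 FPKM in mouse 4, against 2398 to 2471 FPKM in the others. Col7a1 measured 11.1 FPKM in the abdomen wound of mouse 3, against 8.93 to 9.21 FPKM. In the cheek wound of mouse 4, Col6a1 measured 268 FPKM, against 241 to 242 FPKM, and Col6a2 288 FPKM, against 246 to 247 FPKM. Cheek mouse 4 held 3 of the 5 flags, of which the 2 in its wound came from the same library. With a count near that of chance, these flags alone do not set the mouse apart.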

How the results depend on the processing

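Of 84 calls of a chain in a comparison, 0 changed sign under any alternative, and 52 held in every fit that left out a mouse. Of the 71 wound calls, 51 held in those fits and 58 under all other settings, and of the 13 calls between sites 1 held, that of Col7a1 in unwounded cheek against abdomen. Left-out fits called 13 to 23 chains for abdomen wounds (13 without abdomen mouse 1, against 22), 21 to 26 for back wounds, 20 to 25 for cheek wounds and 0 in the F test. Between sites they called 0 to 2 (back minus abdomen), 1 to 2 (cheek minus abdomen) and 0 to 1 (cheek minus back) in unwounded skin, and 0 to 4, 0 to 10 and 0 to 1 in wounds in the same order, where cheek minus abdomen had 0 without abdomen mouse 3 and 10 without abdomen mouse 1.

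At an adjusted p under 0.001 the wound calls were 4, 13 and 11 at abdomen, back and cheek, and 0 chains were called in unwounded back minus abdomen and cheek minus abdomen and in the 3 wound comparisons. Unwounded back minus abdomen (1 chain) gave 2 with no filter, 0 under median-ratio scaling, 0 under quantile normalization and 3 with all 24 libraries in 1 fit. Unwounded cheek minus back (0 chains) gave 3 under median-ratio scaling, 1 without trend and robustness and 3 with all 24 libraries. Wound back minus abdomen (3 chains) gave 0 with no filter, 0 without trend and robustness and 1 with all 24 libraries, and wound cheek minus back (1 chain) gave 0 under either scaling. The causes were not tested. Median-ratio scaling moved the median of all genes by 0.12 in unwounded back minus abdomen and by -0.13 in cheek minus back, and quantile normalization moved it by -0.10 in back wounds.

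Mouse numbers are shared between sites, but libraries of different sites with the same number did not deviate together (mean r -0.174 to 0.0179 over the pairs of sites), so the numbers are not a pairing between sites. With the replicate number as a block, unwounded back minus abdomen gave 0, wound back minus abdomen 1 and wound cheek minus back 0. Leaving out the term for the mouse moved no wound count by over 1.5 times. FPKM gives no depth, so counting error could not be set against these differences.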

Other observations

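Col22a1 and Col3a1 depended on choices outside the calls above. Without the filter on low values, Col22a1 was also lower in cheek wounds than in unwounded cheek (-0.30, adjusted p = 0.0412). Col3a1 was called lower in back wounds under median-ratio scaling (-0.55, adjusted p = 0.0462), with the 8 back libraries alone (adjusted p = 0.0136) and without the term for the mouse (adjusted p = 0.0416), against an adjusted p of 0.0594 as designed.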
